A study of Mus musculus with 24 samples.

Results

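Sorted reporter-positive epithelial cells of the proximal small intestine (SI) were compared between 9S/T-A and WT mice. The comparison rests on 12 of the 24 libraries of the series, 6 of each genotype, chosen by their genotype and tissue labels. WT mice were Atoh1(WT)CreERT2 R26RtdTom and 9S/T-A mice were Atoh1(9S/T-A)CreERT2 R26RtdTom. In both lines the Atoh1 knock-in was homozygous and placed a tamoxifen-inducible Cre recombinase (CreERT2) behind the Atoh1 coding sequence at its own locus, and the tdTomato (tdTom) reporter at Rosa26 was heterozygous. The 9S/T-A allele differs in that the serine or threonine of 9 serine-proline or threonine-proline sites of ATOH1 is replaced by alanine. All mice were adults on a C57BL/6 background, received a single 3 mg dose of tamoxifen and were collected the day after. The libraries numbered 2, 5 and 7 were from females and those numbered 3, 4 and 6 from males, in both genotypes. Live EpCAM+tdTom+ cells were sorted from crypt-enriched tissue after the villus fraction had been discarded. Because the Atoh1 locus itself drives Cre, the sort gate depends on the gene that differs between the genotypes.

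ATOH1, a transcription factor of the basic helix-loop-helix (bHLH) class, commits crypt progenitors to the secretory lineages of the intestine, which are goblet, Paneth and enteroendocrine cells. It binds E-box DNA motifs as a dimer with an E protein, and Id proteins, which lack a DNA-binding region, can take E proteins out of such dimers. Secretory progenitors present Notch ligands that keep their neighbours out of the secretory fate, and cyclin-dependent kinases, active in cycling cells, phosphorylate serine-proline and threonine-proline sites.

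The 12 libraries held between 35967875 and 65796932 counts each, and the goblet cell gene Fcgbp alone took 10.5% to 15.2% of them. Levels are given below as CPM, the read count scaled to a common library size, and differences as log2 fold changes of 9S/T-A over WT with their standard error (SE). Secretory identity was plain in every library, with Muc2, the main gel-forming mucin of goblet cells, at 16830 CPM or more and Lyz1, the lysozyme of Paneth cells, at 14060 CPM or more. The 12 leukocyte markers summed to 21.8 to 37.0 CPM in WT and 15.4 to 38.4 CPM in 9S/T-A, and the 10 stromal and endothelial markers to 1.66 to 2.28 and 1.72 to 2.09 CPM, with Col3a1 and Lum at 0 throughout. The 5 eosinophil markers summed to 1.30 to 4.92 CPM in WT and 0.367 to 5.99 CPM in 9S/T-A, with Epx at 0, the 14 pancreatic acinar markers to 6.97 to 8.29 and 7.22 to 26.9 CPM, and the 7 Brunner gland and gastric markers to 3.65 to 6.74 and 2.12 to 5.02 CPM. In sorted bulk cells, fewer cells of a type and less RNA per cell cannot be told apart.

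Of 16236 genes tested with edgeR's quasi-likelihood test, 315 (1.94%) passed a Benjamini-Hochberg adjusted p of 0.05 and are called here, so that a call is edgeR's unless DESeq2 is named. The 168 higher genes were 1.03% and the 147 lower genes 0.905% of those tested. Scaled by plain library totals, which moved the median of all genes to -0.11, 268 were called, 78 higher and 190 lower. Called differences had a median size of 0.77 on the log2 scale, and 112 of the 315 changed by 2-fold or more. In 334 genes (2.06%) all 6 libraries of one genotype lay above all 6 of the other, and 226 of these were called. On several gene lists the libraries numbered 2 lay at the edge of their groups, but other libraries did so too. The WT library numbered 7 was the extreme WT library on the MHC class II, ribosomal and xenobiotic lists. The libraries numbered 7 also had the lowest median Spearman correlation with their own group (0.9823 in WT and 0.9844 in 9S/T-A). For number 2 it was 0.9891 and 0.986. Without the libraries numbered 2, 779 of 16297 genes (4.78%) were called, 348 higher (2.14%) and 431 lower (2.64%). Of the 315, 299 were among these. All 315 kept their direction. Leaving out any other number in both genotypes gave 143 to 263 called genes, so number 2 was the only one whose removal added calls. Counts without it are given below as a dependence on these libraries, not as added support. Counts of called list members below are read against these percentages. Counts at an unadjusted p under 0.05 are read against 2556 of the 16236 genes tested. Among these genes DESeq2 called 366 higher and 362 lower, the background of its counts below. Without the libraries numbered 2, 1 of 7 epithelial markers was called higher, and 2 of 9 leukocyte and 1 of 3 Brunner gland and gastric markers tested were called lower.

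Atoh1 itself (chr6:64729146-64731233, GRCm38) did not pass the test. Its level ran from 60.8 to 93.6 CPM in WT with a median of 67.8, and from 44.9 to 69.7 CPM in 9S/T-A with a median of 57.3. The groups overlapped, with a log2 change of -0.30 (SE 0.12, edgeR adjusted p = 0.230). Reads were aligned to GRCm38, from which the 9S/T-A coding sequence of Atoh1 differs at its changed sites. Any effect of this mismatch on Atoh1 counts was not tested. None of the 13 secretory transcription factors was called by edgeR, although 6 had an unadjusted p under 0.05, DESeq2 called 1, and 10 of the 13 were higher, with a median log2 fold change of 0.14 against 0.00 over all genes. Spdef, which drives goblet and Paneth cell maturation, had medians of 258 CPM in WT against 312 CPM in 9S/T-A (log2 fold change 0.26, SE 0.11, edgeR adjusted p = 0.270). Xbp1, a regulator of secretory capacity, had medians of 370 and 419 CPM, and in 9S/T-A the library numbered 2 lay below every other library of its group at 352 CPM. Klf4, a factor of goblet cell differentiation, had medians of 382 and 457 CPM, and Gfi1, a repressor acting downstream of ATOH1, of 27.7 and 31.1 CPM. Without the libraries numbered 2, 2 of the 13 were called higher.

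The inhibitors of bHLH proteins gave some of the clearest differences. Id2 ranged from 18.7 to 30.1 CPM in WT with a median of 24.1, and from 32.3 to 45.8 CPM in 9S/T-A with a median of 40.9. The groups did not overlap, and the log2 fold change was 0.72 (SE 0.11, edgeR adjusted p = 0.00225). Id4 ranged from 4.95 to 6.45 CPM in WT and from 14.6 to 23.3 CPM in 9S/T-A, with a wide gap between the groups (log2 fold change 1.73, SE 0.12, edgeR adjusted p = 1.15e-06). The more abundant Id1 and Id3 were not called, with median levels of 124 and 142 CPM for Id1 and 154 and 172 CPM for Id3. Of the 7 Id and E proteins, edgeR called 2 higher and none lower, 5 had an unadjusted p under 0.05, and DESeq2 called 2 higher and 1 lower. The 3 E protein genes each had a negative log2 fold change that did not pass with edgeR.

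Among the 5 Notch ligands, 2 rose and the other 3 were also higher, with a median log2 fold change of 0.35. DESeq2 called 3 higher. Dll3, a Delta-like protein that does not activate Notch in neighbouring cells, ran from 1.21 to 2.59 CPM in WT and from 3.33 to 5.04 CPM in 9S/T-A. This was a separation of the groups with a log2 change of 1.33 (SE 0.18, edgeR adjusted p = 0.00132). Jag2, a ligand of the Jagged class, ranged from 1.57 to 1.90 CPM in WT and from 2.1 to 3.11 CPM in 9S/T-A, again with no overlap (log2 fold change 0.71, SE 0.12, edgeR adjusted p = 0.00637). The abundant ligands of secretory progenitors, Dll1 and Dll4, did not pass. Dll4 had medians of 92.7 and 121 CPM (log2 fold change 0.35, SE 0.096, edgeR adjusted p = 0.0867) and Dll1 of 108 and 111 CPM. None of the 14 Notch receptors, modulators and targets was called by edgeR or DESeq2, 1 had an unadjusted p under 0.05, their median was -0.05, and 1 was called lower without the libraries numbered 2. Hes1, the classic Notch target, had medians of 31.9 and 31.8 CPM (log2 fold change 0.01, SE 0.079), and Numb, Mib1 and Adam10, which act on Notch or its ligands, had log2 fold changes between -0.12 and 0.09.

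Motifs were looked up on both strands of RefSeq promoters (GRCm38.p6, from 250 bases before to 50 after the start of each gene). The E-box CAGCTG, one form of the motif bound by bHLH dimers, reads the same on both strands and occurred in 18.3% of 27025 promoters. A second E-box, CAGATG, occurred in 19.2% and TATAAA, the core of the TATA box, in 15.7%. Promoters were matched for 118 of 154 called protein-coding genes that were higher (76.6%), under the 80% needed, so a comparison of shares in the raised genes is void and none was made. Of 112 called lower, 95 were matched and 15.8% of these held CAGCTG, against 17.8% of 10149 matched protein-coding genes tested. For CAGATG these shares were 16.8% and 13.8%. Of the named genes, chosen for their change, 9 of 26 called higher and 0 of 20 called lower with a promoter held CAGCTG, and the match of 26 of 33 is also under 80%, so nothing is read from these counts. The stretches of 30 bases around CAGCTG are shown for some of the 9 raised genes that hold it. These genes were picked because they hold the motif and do not stand for their lists or for other raised genes. Capitals mark the motif.
Id2, chr12:25096271-25096300, minus strand, motif beginning 196 bases before the start: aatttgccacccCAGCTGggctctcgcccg
Dll3, chr7:28301775-28301804, minus strand, 7 bases before: tccggcatccagCAGCTGcgactcctgaga
Guca2a, chr4:119637514-119637543, plus strand, 206 bases before: caggacccagccCAGCTGtgagtcacagta
Sct, chr7:141279248-141279277, minus strand, 132 bases before: gtggccggacgaCAGCTGggtgggcggccc
Sval1, chr6:41951465-41951494, plus strand, 151 bases before: attctgaggttcCAGCTGgatactcaccct
A match describes these letters only and shows no binding.

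**Figure D1:**
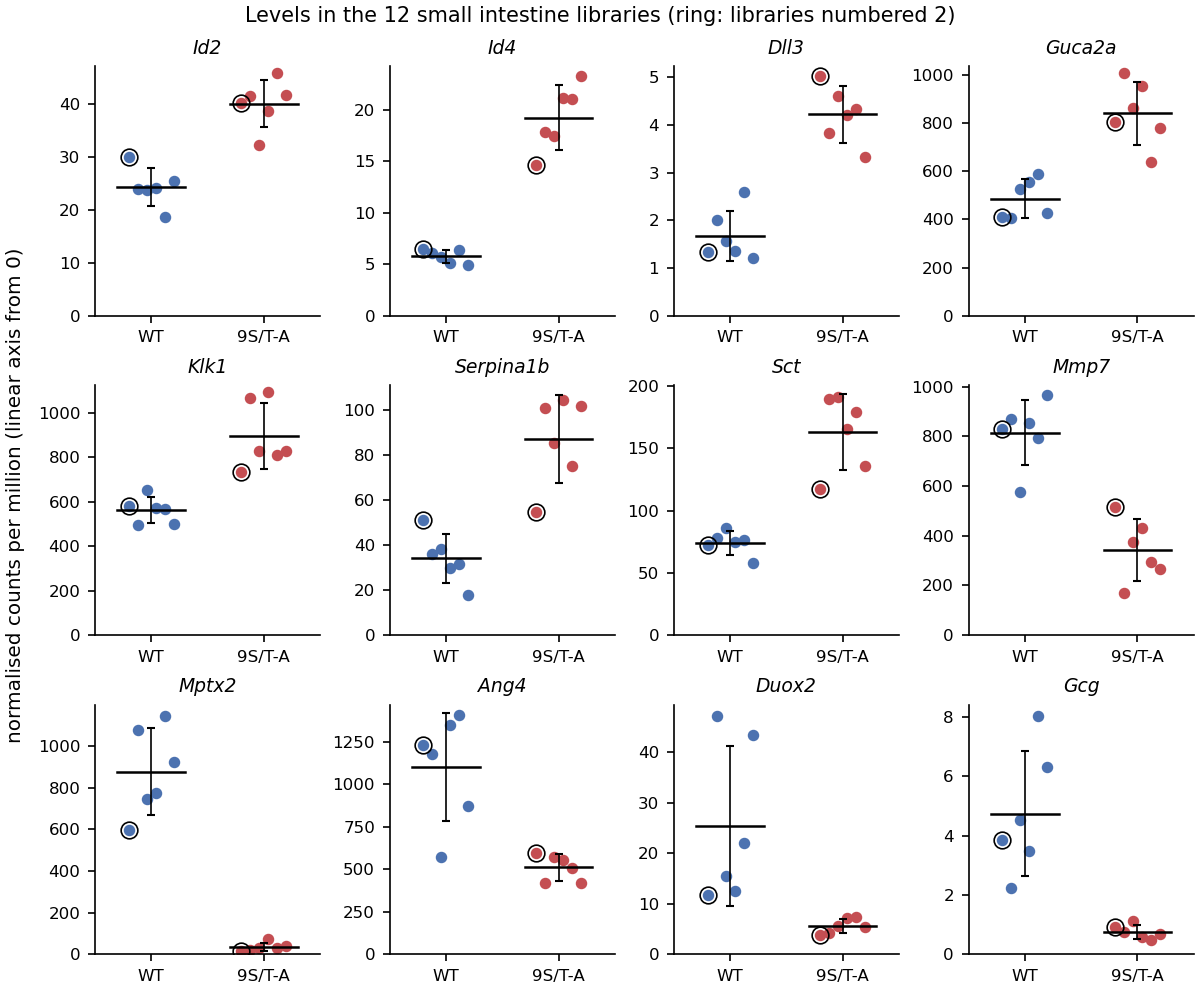
Normalised CPM (vertical axes, linear from 0, a scale of its own for each gene) of 12 genes in the 6 WT (blue) and 6 9S/T-A (red) small intestine libraries; bars give the mean and the SD, and rings mark the libraries numbered 2. Id2, Id4, Dll3, Guca2a, Klk1, Serpina1b and Sct lie higher in all 9S/T-A libraries than in any WT library, Mmp7, Mptx2, Duox2 and Gcg lie lower in all of them, and Ang4 overlaps in 1 WT library.

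Goblet cell products rose in part. Of 17 tested, edgeR called 3 higher and none lower and DESeq2 4 and 0, 7 had an unadjusted p under 0.05, 15 were higher, and the median log2 fold change was 0.27. Guca2a, the peptide guanylin that regulates salt and water secretion, ran from 407 to 588 CPM in WT and from 638 to 1006 CPM in 9S/T-A. All 9S/T-A libraries lay above all WT libraries (log2 fold change 0.79, SE 0.13, edgeR adjusted p = 0.00422). Rep15, a Rab15-binding protein, moved from a median of 114 to 147 CPM without overlap (log2 fold change 0.37, SE 0.077, edgeR adjusted p = 0.0215). Capn9, a calpain protease of the gut, rose from a median of 349 to 490 CPM, but the 9S/T-A library numbered 2, at 355 CPM, lay within the WT range (log2 fold change 0.43, SE 0.099, edgeR adjusted p = 0.0402). Its call was lost in 10 of the 12 fits that left out a single library.

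The major secreted proteins of goblet cells did not pass in all libraries. Clca1, a mucus-processing metalloprotease, ranged from 18260 to 28250 CPM in WT and from 24000 to 36400 CPM in 9S/T-A (log2 fold change 0.41, SE 0.15, edgeR adjusted p = 0.198). Muc2 had medians of 20420 and 27880 CPM and Tff3, a trefoil peptide, of 29780 and 36020 CPM, both with overlapping groups. Leaving out the libraries numbered 2 raised the number of goblet cell products called higher from 3 to 7 of 17, and brought Clca1 to an edgeR adjusted p of 0.0475 while Muc2 stayed at 0.0642. In the level of the whole list by library, the 9S/T-A library numbered 2 lay within the WT range and the other 5 lay above it. The 22 genes of mucin-type O-glycosylation, which builds the sugar chains of mucins, and the 22 of endoplasmic reticulum (ER) folding had no called gene by edgeR (7 and 2 with an unadjusted p under 0.05; DESeq2 called 1 and 0), and medians of 0.04 and -0.02. A single O-glycosylation gene was called higher without the libraries numbered 2.

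Paneth cell products other than defensins were called in the opposite direction. Of 16 tested, edgeR called 6 lower and none higher, 10 had an unadjusted p under 0.05, 12 were lower, and the median log2 fold change was -0.45. DESeq2 called 7 lower and 1 higher, and without the libraries numbered 2 edgeR called 6 lower and 1 higher. Mptx2, a pentraxin of Paneth cells, ranged from 597 to 1142 CPM in WT and from 16.6 to 71.5 CPM in 9S/T-A, a 24.9-fold lower level in the fit (log2 fold change -4.64, SE 0.33, edgeR adjusted p = 1.69e-06). Mmp7 (matrilysin), the protease that activates pro-defensins, ran from 575 to 965 CPM in WT and from 168 to 517 CPM in 9S/T-A. Its groups did not overlap (log2 fold change -1.25, SE 0.22, edgeR adjusted p = 0.0072).

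Itln1, a lectin that binds microbial sugars, had a median of 9048 CPM in WT against 4330 CPM in 9S/T-A, with the highest 9S/T-A library at 5052 CPM and the lowest WT library at 5356 CPM. Ang4, an antimicrobial RNase, overlapped in 1 WT library, which held 574 CPM against a highest 9S/T-A level of 596 CPM (log2 fold change -1.11, SE 0.19, edgeR adjusted p = 0.00607). Mptx1 fell from a median of 75.1 to 45.6 CPM. Pla2g2a, a phospholipase gene that the annotation lists as a polymorphic pseudogene, fell from a median of 85.8 to 56.7 CPM. Lyz1 did not pass (medians 19860 and 18620 CPM, log2 fold change -0.15, SE 0.14), so that the called members were not the most abundant one.

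Alpha-defensins, the antimicrobial peptides of Paneth cells, showed another pattern. Of 30 tested, edgeR called 6 higher and none lower, DESeq2 10 and 2, and 15 had an unadjusted p under 0.05, while 19 were higher and 11 lower, and the median log2 fold change was 0.06. Defa20, one of 6 called in a cluster on chromosome 8, ran from 471 to 1449 CPM in WT and from 1146 to 3196 CPM in 9S/T-A (log2 fold change 1.22, SE 0.27, edgeR adjusted p = 0.0351). Defa-ps18, a pseudogene, moved from a median of 8.61 to 15.7 CPM without overlap (log2 fold change 0.84, SE 0.16, edgeR adjusted p = 0.0115), and Defa25 from 1.07 to 1.77 CPM and Defa28 from 8.48 to 15.5 CPM. Without the libraries numbered 2, only 2 of the 30 stayed called higher, Defa20 at an adjusted p of 0.0565 and Defa28 at 0.0561. Most of the reads of the family fell on members that were lower and not called, such as Defa24 (mean 17690 CPM in WT against 14130 CPM in 9S/T-A), and the summed level ran from 39800 to 81200 CPM in WT and from 42200 to 64300 CPM in 9S/T-A. The copies are near-identical, and Defa23 and Defa31 had the same mean levels to 3 digits, so that the split of reads among them is uncertain.

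The RNase A family held the largest falls. Of 10 Ear, angiogenin and other RNase A genes tested, 7 fell and 2 rose. Ear1, Ear2, Ear6 and Ear10 belong to the eosinophil-associated RNases. Ear1 held 166 to 581 counts in each WT library and 0 in all 9S/T-A libraries, which makes it at least 674-fold lower against a floor of 3 counts over the group. Ear2 held 249 to 825 counts in each WT library and 2 counts in all 9S/T-A libraries together, a ratio of 1490 with a 95% counting interval of 412 to 12300. Ear10 held 179 to 710 counts in each WT library and 1 in 9S/T-A, with a ratio of 2400 (95% counting interval 430 to 94700). These intervals cover counting error only, and the edgeR adjusted p was 1.16e-05, 3.42e-08 and 4.54e-08 in that order. Ear6 was at 0 in all 9S/T-A libraries and at least 64.7-fold lower. Ear1, Ear2 and Ear10 are related copies that lie close together on chromosome 14. Reads of one may be counted to another, so their falls need not be separate results.

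Angiogenin genes moved both ways. Ang5 fell from a range of 21.6 to 61.3 CPM to one of 8.78 to 12.9 CPM, and Ang6, at 0.976 to 1.80 CPM in WT, was at 0.0541 CPM or less in 9S/T-A. Ang rose from a median of 28.9 to 52.6 CPM without overlap (log2 fold change 0.83, SE 0.13, edgeR adjusted p = 0.00354). Rnase4 rose from a median of 244 to 345 CPM (log2 fold change 0.43, SE 0.10, edgeR adjusted p = 0.0447). Rnase4 begins at the same base as Ang and its span holds all of Ang, so these rises need not be separate results. The median of the 10 genes was -4.20 as fitted and -3.98 with the genes at 0 set to their bounds. The 5 eosinophil markers given above stayed at 5.99 CPM or less in sum. Epx was at 0 in every library, and Prg2, Ccr3 and Il5ra reached at most 7 counts in any. The sum thus rests on Siglecf (up to 382 counts), the only 1 tested, and the part of eosinophils was not tested.

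Members of a secreted protease family and of an inhibitor family rose. Of 9 Klk1 kallikreins tested, tissue serine proteases, 8 were called higher and the other had the same direction and was called without the libraries numbered 2, with a median log2 fold change of 0.67. Klk1 itself ran from 494 to 650 CPM in WT and from 732 to 1092 CPM in 9S/T-A, with no overlap (log2 fold change 0.67, SE 0.11, edgeR adjusted p = 0.00548). Klk1b5, at 60.3 to 77.2 CPM in WT and 88.1 to 135 CPM in 9S/T-A, and the less abundant Klk1b3 and Klk1b4 had log2 fold changes between 0.65 and 0.69. Of 5 Serpina1 antitrypsins tested, which inhibit neutrophil elastase and related proteases, all 5 rose, with a median of 1.27. Serpina1b ran from 17.6 to 51.0 CPM in WT and from 54.7 to 104 CPM in 9S/T-A (log2 fold change 1.35, SE 0.21, edgeR adjusted p = 0.00351). Serpina1d and Serpina1a separated the groups in the same way, and Serpina1c overlapped in its lowest 9S/T-A library, at 5.2 CPM. In both families the copies are near-identical and the reads of one gene may be counted to another.

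Enteroendocrine genes were low in these cells and mostly lower in 9S/T-A. The paper did not detect the reporter in ChgA+ enteroendocrine cells the day after tamoxifen. Which sorted cells gave these reads was not tested. All 12 enteroendocrine transcription factors were lower, with a median log2 fold change of -0.88, and all 12 had an unadjusted p under 0.05, but none was called by edgeR, while DESeq2 called 4. Neurog3, the factor that starts the enteroendocrine program, ran from 8.61 to 34.8 CPM in WT and from 5.43 to 18.5 CPM in 9S/T-A. These ranges overlapped (log2 fold change -0.83, SE 0.32, edgeR adjusted p = 0.225). Insm1, a zinc finger factor that follows it, had medians of 10.6 and 4.81 CPM (log2 fold change -1.16, SE 0.30, edgeR adjusted p = 0.0689), and Nkx2-2 of 8.18 and 5.46 CPM. In both genotypes the library numbered 2 had the lowest level of the list, and without these libraries 3 of 12 were called lower.

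Of 18 gut hormones and granins, 1 rose and 1 fell, and without the libraries numbered 2 these counts were 1 and 3. DESeq2 called 1 higher and 3 lower, and 6 had an unadjusted p under 0.05. Sct, the hormone secretin, ran from 57.5 to 85.6 CPM in WT and from 117 to 191 CPM in 9S/T-A, so that all 6 9S/T-A libraries exceeded all WT libraries (log2 fold change 1.14, SE 0.13, edgeR adjusted p = 1.99e-04). Gcg, which codes for glucagon-like peptides, ran from 2.22 to 8.04 CPM in WT and from 0.461 to 1.12 CPM in 9S/T-A, also without overlap (log2 fold change -2.65, SE 0.30, edgeR adjusted p = 2.27e-04). The other 16 did not pass with edgeR. Chga, a granin of most enteroendocrine cells, had medians of 32.7 and 29.2 CPM, and its log2 fold change of -0.09 (SE 0.30) changed sign when single libraries were left out. Neurod1, which acts after Neurog3, had medians of 5.50 and 2.95 CPM.

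Tuft cell genes were lower as well. The paper did not detect the reporter in Dclk1+ tuft cells the day after tamoxifen, and the source of these reads was not tested. All 12 tested were lower, 2 were called, or 4 without the libraries numbered 2, and the median log2 fold change was -0.83. DESeq2 called 4 lower, and 7 had an unadjusted p under 0.05. Pou2f3, the master factor of tuft cells, ran from 4.03 to 9.17 CPM in WT and from 1.53 to 4.66 CPM in 9S/T-A (log2 fold change -1.18, SE 0.24, edgeR adjusted p = 0.0197). Gfi1b, a repressor found in tuft cells, ran from 0.497 to 0.788 CPM in WT and from 0.0887 to 0.310 CPM in 9S/T-A, with no overlap (log2 fold change -1.76, SE 0.30, edgeR adjusted p = 0.00637). Dclk1, the usual tuft cell marker, had medians of 18.2 and 7.62 CPM, overlapping between groups (log2 fold change -1.05, SE 0.28, edgeR adjusted p = 0.0749), and passed without the libraries numbered 2 (0.0372). In the level of the list by library, the 9S/T-A library numbered 7 lay within the WT range and the other 5 below it.

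**Figure D2:**
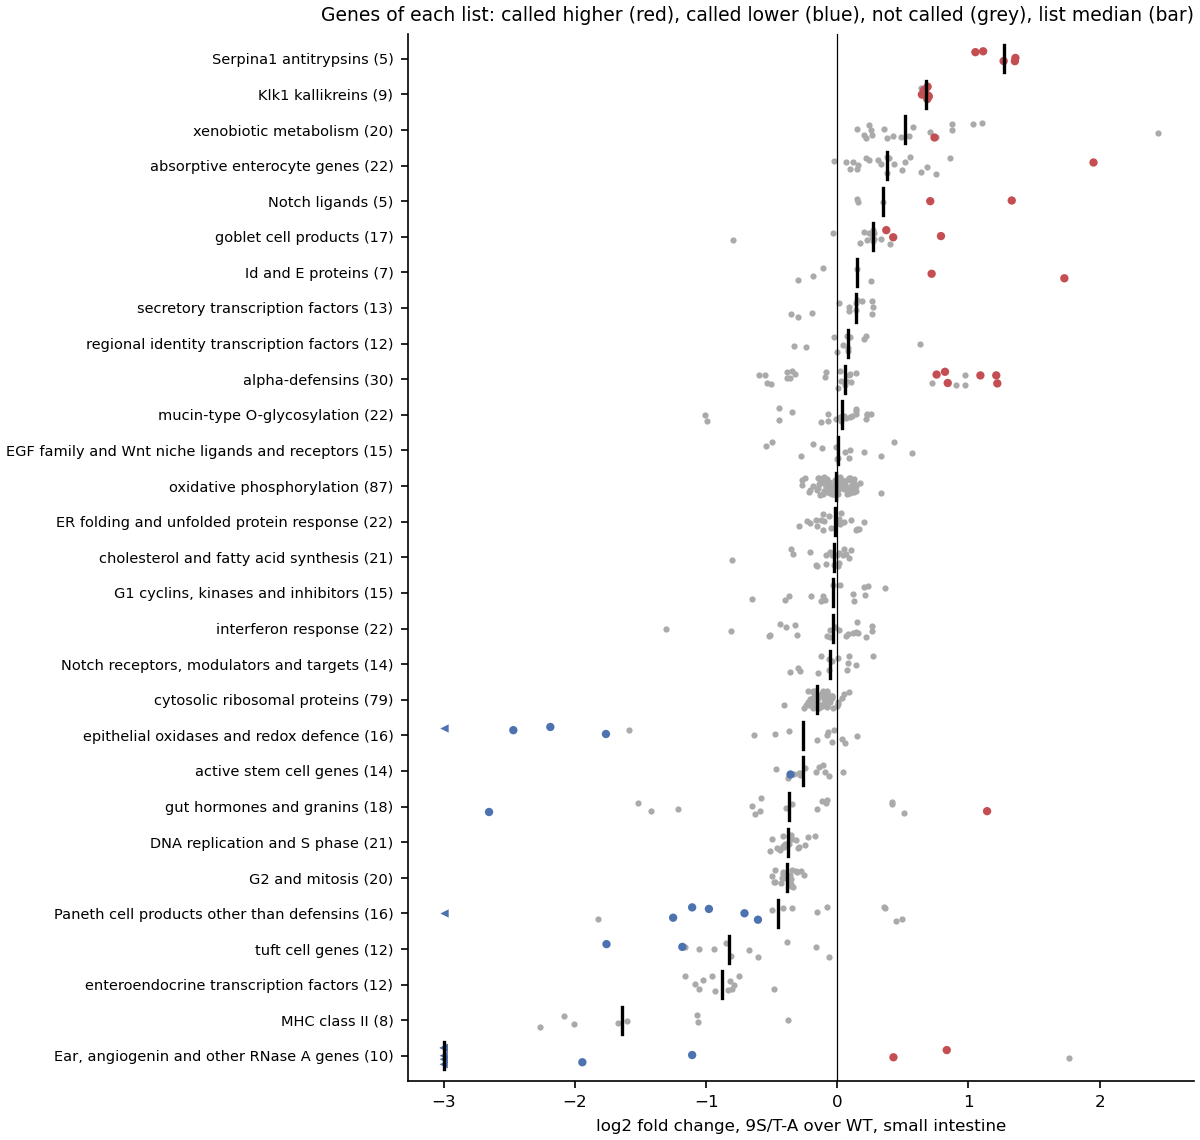
Log2 fold change of 9S/T-A over WT in small intestine (horizontal axis) for each tested gene of 29 lists (rows, with the number of genes tested); red and blue points were called higher and lower, grey points were not called, bars are list medians, and 7 genes beyond -3 are drawn at the edge as triangles. Klk1 kallikreins and Serpina1 antitrypsins lie wholly to the right, and all tested genes of the enteroendocrine factors, tuft cell, replication, mitosis and MHC class II lists lie to the left of 0, mostly uncalled.

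Cell cycle genes were lower throughout but did not pass gene by gene. All 21 genes of DNA replication and S phase were lower, with a median log2 fold change of -0.38. None was called by edgeR, 13 had an unadjusted p under 0.05, and DESeq2 called 2. All 20 genes of G2 and mitosis were lower, with the same median of -0.38, 12 with an unadjusted p under 0.05 and none called by edgeR or DESeq2. Mki67, the Ki-67 proliferation antigen, ran from 59.5 to 92.6 CPM in WT and from 51.0 to 70.4 CPM in 9S/T-A, overlapping (log2 fold change -0.32, SE 0.11, edgeR adjusted p = 0.185). Top2a, a topoisomerase of mitotic chromosomes, had medians of 79.8 and 56.8 CPM, and Ccna2, cyclin A2, of 32.2 and 24.4 CPM. The replication licensing helicase genes Mcm2, Mcm6 and Mcm7 had medians of 30.1 and 20.9, 62.3 and 51.0, and 40.0 and 29.8 CPM, and Pcna, the polymerase clamp, of 44.3 and 36.2 CPM.

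The libraries numbered 2 bore on both cell cycle lists. In WT the library numbered 2 had the lowest level of each list, and in 9S/T-A the library numbered 2 had the highest. Leaving them out therefore widens the difference on these same lists, so the values without them are no added support. Without them, 5 of 21 replication genes and 8 of 20 mitosis genes were called lower, with medians of -0.54 for both lists. Top2a then passed at an edgeR adjusted p of 0.0286. The 15 genes of G1 control had no called gene by edgeR or DESeq2, 5 with an unadjusted p under 0.05 and a median of -0.03, and without the libraries numbered 2 had 2 called higher and 1 lower. Within them Cdkn1a, the cyclin-dependent kinase inhibitor p21, was higher, at 209 to 290 CPM in WT and 235 to 412 CPM in 9S/T-A (log2 fold change 0.37, SE 0.12, edgeR adjusted p = 0.140), and reached an adjusted p of 0.0186 without the libraries numbered 2. Ccnd1, cyclin D1, had medians of 39.1 and 30.3 CPM, and Ccnd2 of 174 and 184 CPM. Cdkn2b, the inhibitor p15, had medians of 91.1 and 110 CPM and an adjusted p of 0.0368 without those libraries.

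Stem cell genes differed little in size. Of 14, edgeR called 1 lower and DESeq2 2, and 7 had an unadjusted p under 0.05. In direction 13 were lower, with a median log2 fold change of -0.26. Prom1 (prominin), a membrane protein of crypt base cells, ran from 144 to 181 CPM in WT and from 115 to 141 CPM in 9S/T-A, a small difference without overlap (log2 fold change -0.36, SE 0.082, edgeR adjusted p = 0.0361). The call was lost in 7 of 12 fits without a single library, those without the 9S/T-A libraries 3, 4 and 7 and the WT libraries 3, 4, 6 and 7 (adjusted p of 0.0952 or less). Lgr5, the R-spondin receptor that marks crypt base stem cells, had medians of 15.9 and 13.9 CPM (log2 fold change -0.16, SE 0.15), and Olfm4, another gene of these cells, of 584 and 493 CPM (log2 fold change -0.25, SE 0.15). Without the libraries numbered 2, 5 of 14 were called lower, and Lgr5 and Olfm4 were not among them (adjusted p = 0.324 and 0.142).

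Genes of absorptive cells varied widely between libraries. Of 22 absorptive enterocyte genes, 21 were higher and 1 was called, with a median log2 fold change of 0.38. DESeq2 called 4 higher, and 7 had an unadjusted p under 0.05. Akp3, an intestinal alkaline phosphatase, ran from 3.40 to 12.9 CPM in WT and from 11.4 to 72 CPM in 9S/T-A, and the 9S/T-A libraries numbered 5 and 7, at 12.4 and 11.4 CPM, lay within the WT range (log2 fold change 1.95, SE 0.44, edgeR adjusted p = 0.0338). Its call was lost without the libraries numbered 2 (0.0542) and in 8 of 12 fits without a single library, the 9S/T-A libraries 3, 4 and 6 and the WT libraries 2 to 6. The level of the list by library spread over more than a log2 unit within each genotype, from -0.71 to 0.77 in WT and from -0.01 to 1.24 in 9S/T-A relative to the WT mean. All 20 genes of xenobiotic metabolism were higher with 1 called, Gsta1, a glutathione transferase, which ran from 115 to 212 CPM in WT and from 220 to 407 CPM in 9S/T-A (log2 fold change 0.73, SE 0.17, edgeR adjusted p = 0.0357). It lost its call in 8 of 12 fits without a single library, the 9S/T-A libraries 3, 5 and 6 and the WT libraries 3 to 7 (adjusted p of 0.0916 or less), and 2 genes of the list were called higher without the libraries numbered 2. In the xenobiotic list DESeq2 called 2 higher, and 5 had an unadjusted p under 0.05.

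**Figure D3:**
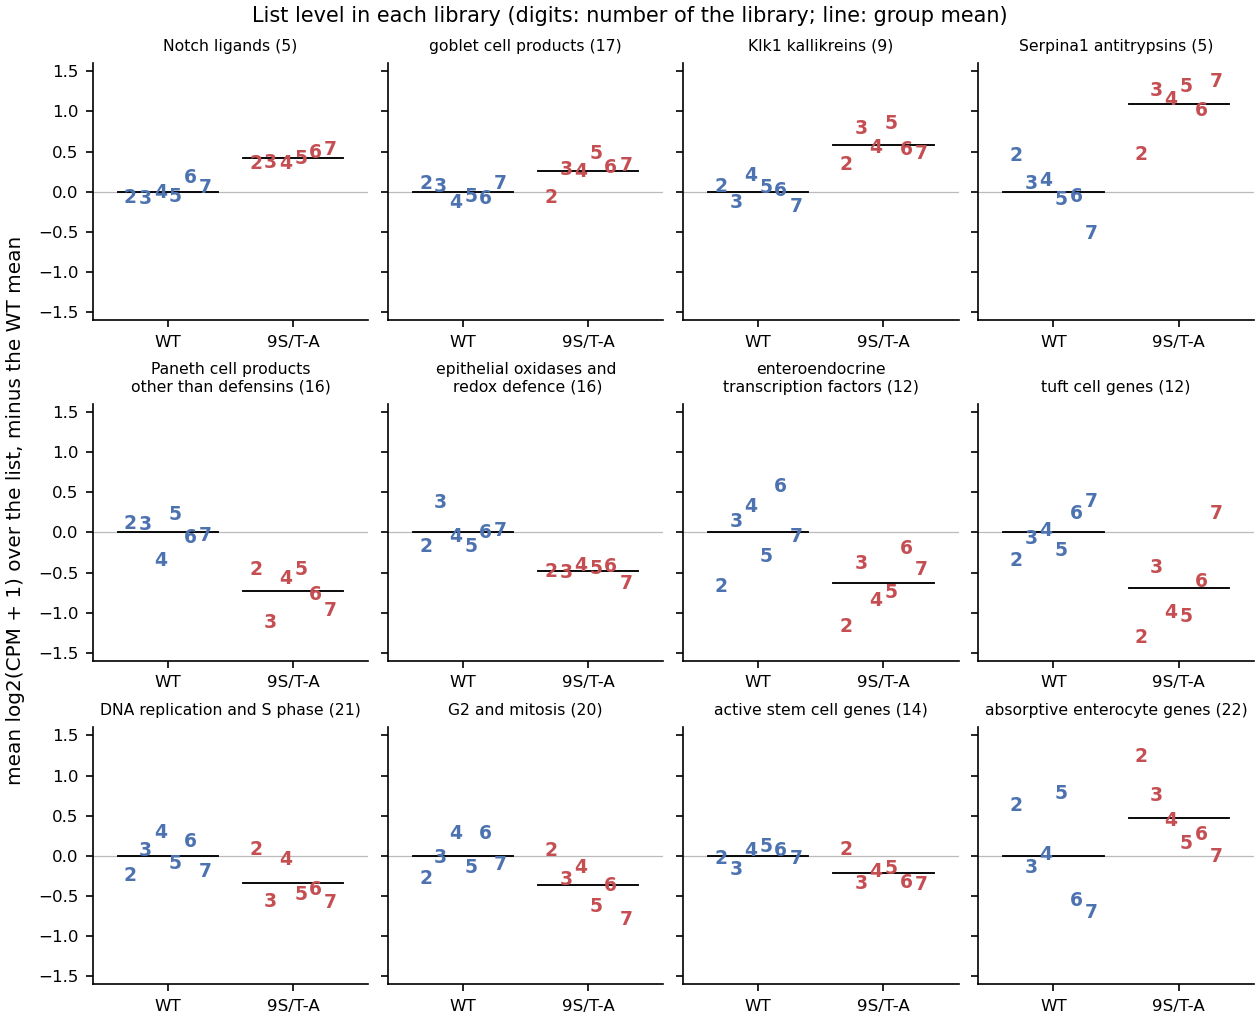
Mean log2(CPM + 1) over the tested genes of 12 lists minus its WT mean (vertical axis) in each library; digits give the library's number, blue for WT and red for 9S/T-A, and lines are group means. The Notch ligand, Klk1, Serpina1, Paneth product and oxidase lists separate the genotypes in all 12 libraries. On the replication and mitosis lists the library numbered 2 is the lowest in WT and the highest in 9S/T-A.

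Oxidant-producing enzymes of the epithelium fell. Of 16 genes of oxidases and redox defence, edgeR called 4 lower and none higher, 7 had an unadjusted p under 0.05, and the median log2 fold change was -0.26. DESeq2 called 5 lower, as did edgeR without the libraries numbered 2. Duox2, the dual oxidase that makes hydrogen peroxide at the apical surface, ran from 11.8 to 47.3 CPM in WT and from 3.86 to 7.28 CPM in 9S/T-A, without overlap (log2 fold change -2.19, SE 0.35, edgeR adjusted p = 0.00406). Nos2, the inducible nitric oxide synthase, ran from 0.683 to 24.1 CPM in WT, with its median at 2.92, and from 0.0204 to 0.675 CPM in 9S/T-A. That was a separation by a narrow margin (log2 fold change -4.33, SE 0.93, edgeR adjusted p = 0.0267). Without the WT library numbered 3 its log2 fold change was -3.08 and the call was lost (0.0537), as it was without the 9S/T-A libraries 3, 4, 5 or 7 (0.0506 to 0.0651). Nox1, the colonic NADPH oxidase, and Duox1 had medians of 1.08 and 0.164 CPM and of 1.2 and 0.453 CPM and overlapped between groups (edgeR adjusted p = 0.0351 and 0.0396). The redox enzymes of the list, such as catalase and the superoxide dismutases, were not called.

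Immune-related lists did not pass as a whole. All 8 MHC class II genes were lower with a median log2 fold change of -1.64, 6 with an unadjusted p under 0.05, but none was called by edgeR or DESeq2. Cd74, the class II invariant chain, ran from 10.2 to 153 CPM in WT and from 1.54 to 24.7 CPM in 9S/T-A, overlapping, with the WT library numbered 7 far above the others. H2-Eb1 was highest in the same library, at 33.0 CPM, and H2-Ab1, a class II beta chain, had medians of 49.2 and 42.1 CPM. Of 9 leukocyte markers tested 1 was called lower, Cd14 (mean 4.58 CPM in WT against 3.15 CPM in 9S/T-A, edgeR adjusted p = 0.0468), and its part in these results was not tested. Of 22 interferon response genes, none was called by edgeR or DESeq2, 1 had an unadjusted p under 0.05, and Irf7, an interferon regulatory factor, had medians of 141 and 174 CPM.

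Core metabolic and positional lists moved little. None of the 79 cytosolic ribosomal protein genes was called by edgeR (1 with an unadjusted p under 0.05, 1 called by DESeq2), although 74 were lower, with a median log2 fold change of -0.15 and Rplp0, an acidic ribosomal protein, at medians of 673 and 561 CPM. The 87 genes of oxidative phosphorylation (median -0.01), the 21 of cholesterol and fatty acid synthesis (-0.03), the 15 of the EGF family and Wnt niche (0.01) and the 12 regional identity transcription factors (0.08) had no gene called by edgeR, with 2, 3, 4 and 2 genes at an unadjusted p under 0.05 and 0, 0, 0 and 1 called by DESeq2. Among their most abundant members, Atp5b, a subunit of ATP synthase, had medians of 856 and 807 CPM, Hmgcs1, an enzyme of the mevalonate pathway, of 276 and 277 CPM, and Erbb3, a receptor of the EGF family, of 227 and 234 CPM. Hnf4a, an enterocyte transcription factor, ran from 445 to 555 CPM in WT and from 454 to 655 CPM in 9S/T-A. In the ER and O-glycosylation lists, Hspa5, the ER chaperone BiP, had medians of 843 and 831 CPM and Gcnt3, a mucin core-branching enzyme, of 438 and 509 CPM.

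A wider secretory signature was taken, by gene name, from a sort of reporter-positive against reporter-negative SI cells of mice under another tamoxifen schedule. Of its 500 genes 473 were tested, and of these 59 were called higher and 19 lower, 16.5% against 1.94% of all genes, and 329 were higher with a median log2 fold change of 0.18. Rasd2, a small GTPase, ran from 40.8 to 55.8 CPM in WT and from 79.6 to 97.9 CPM in 9S/T-A, with no overlap (log2 fold change 0.94, SE 0.084, edgeR adjusted p = 2.00e-05). Sval1, a seminal vesicle antigen-like protein, ran from 3.20 to 4.06 CPM in WT and from 9.44 to 19.5 CPM in 9S/T-A (log2 fold change 1.81, SE 0.16, edgeR adjusted p = 1.50e-05). Leaving out the libraries numbered 2 gave 102 higher and 27 lower.

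Other large rises fell outside the pathway lists. Psca, a membrane-anchored antigen, ran from 0.390 to 1.56 CPM in WT and from 2.20 to 5.03 CPM in 9S/T-A, with the largest rise under the rule used (log2 fold change 2.02, SE 0.30, edgeR adjusted p = 0.00225). Insrr, an insulin receptor-related kinase that senses alkaline pH, ran from 8.58 to 19.0 CPM in WT and from 29.3 to 54.7 CPM in 9S/T-A (log2 fold change 1.53, SE 0.18, edgeR adjusted p = 3.77e-04). Ttc28 and R3hdml likewise separated the groups, with medians of 1.62 and 4.84 CPM and of 4.14 and 13.6 CPM. Pde10a, a cyclic nucleotide phosphodiesterase, and Ppp1r3e, a glycogen-targeting subunit of protein phosphatase, also showed no overlap, whereas Tppp3, a tubulin-binding protein, overlapped and lost its call without the libraries numbered 2 (adjusted p = 0.0701).

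Large falls outside the pathway lists included several secreted and surface proteins. Ceacam10, a secreted member of the CEA family, ran from 2.12 to 14.6 CPM in WT and from 0.184 to 0.593 CPM in 9S/T-A (log2 fold change -4.07, SE 0.44, edgeR adjusted p = 1.45e-04). Cd177, a glycoprotein best known from neutrophils, ran from 5.31 to 15.1 CPM in WT and from 1.16 to 3.06 CPM in 9S/T-A (log2 fold change -2.29, SE 0.29, edgeR adjusted p = 6.90e-04). Saa1, an acute phase serum amyloid, had medians of 3.97 and 0.783 CPM, and C4b, a complement component, of 4.68 and 0.918 CPM, both without overlap. Beside these, the summed leukocyte markers overlapped between the genotypes as given above, and their part was not tested.

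Called genes were clustered in 8 of the 548 windows of 5 Mb with tested genes, which held 5 or more each and 61 together. On chromosome 14 the window from 40 to 45 Mb held 8 called genes of 16 tested, all lower, including Ear1 (chr14:43818765-43875517), Ear2 (chr14:44102654-44103534), Ear10 (chr14:43922720-43923559) and Ang5. The next cluster on that chromosome, from 50 to 55 Mb, held 11 of 64, with 5 higher, among them Ang and Rnase4, and 6 lower, among them Ang4 and Ear6. The window from 170 to 175 Mb of chromosome 1 held 6 of 68, among them Mptx1, Mptx2 and Itln1. The window from 100 to 105 Mb of chromosome 12 held 7 of 50, all higher, with the Serpina1 genes, and the one from 40 to 45 Mb of chromosome 7 held 9 of 70, 8 of them higher, with the Klk1 genes. The defensin window of chromosome 8, from 20 to 25 Mb, held 6 of 68, all higher. Chromosome 5 from 40 to 45 Mb held 5 of 21, all lower, including Prom1 and Cd38, an enzyme of NAD turnover whose median was 37.7 CPM in WT against 27.1 CPM in 9S/T-A. Chromosome 9 from 105 to 110 Mb held 9 of 105, 5 higher and 4 lower.

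The same genotypes were also sorted from colon (6 libraries each), which shows where an SI difference departed from that in the other tissue. The difference between the tissues passed for 74 of 17953 genes (0.412%). Mptx2 stood at 465 ± 156 CPM (SD, n = 6) in WT colon and its log2 fold change there was 0.42, against -4.64 in SI (difference 5.06, edgeR adjusted p = 3.38e-08). Ceacam10, Cd177 and Duox2, at -0.06, -0.04 and 0.20 in colon, also differed (edgeR adjusted p = 1.62e-05, 0.00149 and 0.00186), as did Mmp7 at 0.84 (0.0318) and Sval1 at -0.30 (1.62e-05). For Id4, Id2, Dll3, R3hdml and Sct the log2 fold change in colon was 1.42, 0.57, 1.71, 1.53 and 0.90, and the difference between the tissues did not pass for any of them (adjusted p of 0.747 or more). Klk1 and Serpina1b, at 0.12 and -0.34 in colon, did not pass either (0.196 and 0.114). Mean colon CPM in WT and 9S/T-A was low for R3hdml (0.23, 0.68), Dll3 (0.41, 1.33) and Serpina1b (0.27, 0.21). A difference that did not pass does not show equal changes in both tissues.

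**Figure D4:**
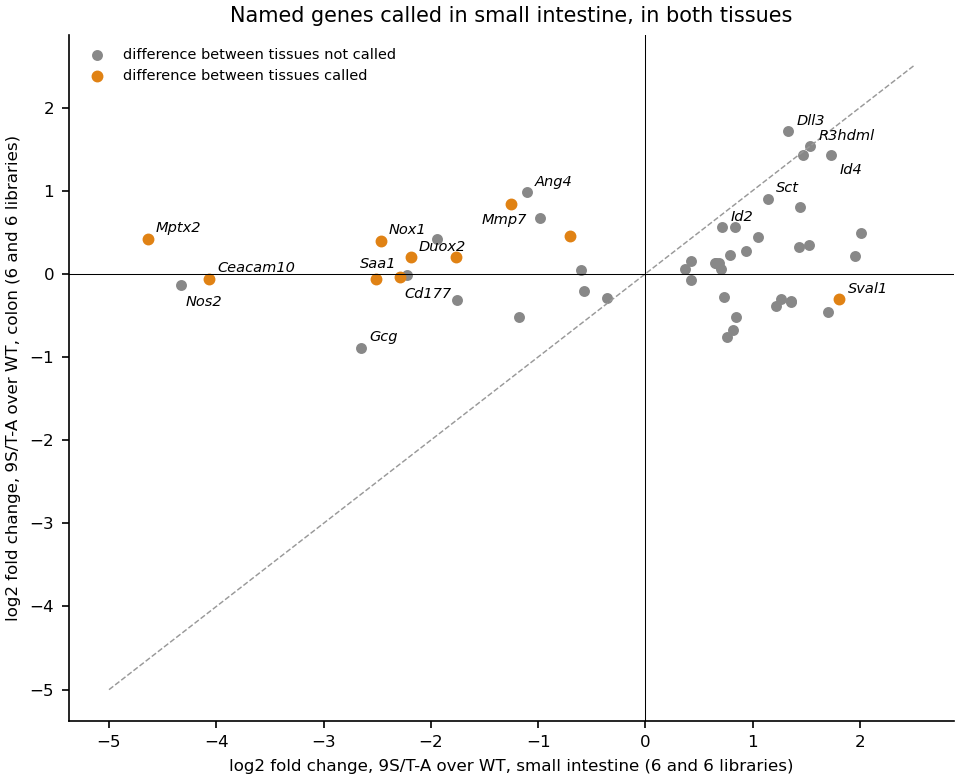
Log2 fold change of 9S/T-A over WT in small intestine (horizontal axis) and in colon (vertical axis) for 53 of the named genes called in small intestine; orange points are the 10 whose difference between the tissues passed the test, the dashed line marks equal values, and Ear1, Ear2, Ear10 and Ang6, beyond -5 in small intestine, are not drawn. Id4 and, at low colon levels, Dll3 and R3hdml lie near the line, and Mptx2, Ceacam10, Cd177 and Duox2 lie near 0 in colon.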

How the data were processed

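RNA of sorted EpCAM+tdTom+ cells was sequenced by the authors with a stranded mRNA kit, aligned to GRCm38.p3 with TopHat2 2.1.1 and counted per gene with featureCounts (Subread 1.5.2) using strand and primary alignments, so a read matching several copies was counted at 1 of them. The deposited values are raw read counts per gene. The authors' own tests used DESeq2 1.14.1. Here the counts of 45513 genes were filtered with filterByExpr by genotype, scaled by trimmed mean of M-values (TMM) and tested with the quasi-likelihood F test of edgeR 4.0.16 (R 4.3.3), 9S/T-A against WT, with Benjamini-Hochberg adjustment over all 16236 genes. The same test of genotype by tissue used all 24 libraries. The fit was tested on simulated counts. No 2 libraries held identical values. The labels do not say whether replicates were separate mice, so p-values measure the spread between these libraries.

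The members and gene lists were chosen with earlier results of these data known. Named genes were the 10 largest rises and the 10 largest falls among called protein-coding genes whose average reached 1 on the log2 CPM scale and whose 9S/T-A libraries all lay on one side of the WT mean, up to 4 called genes of each of 30 lists, up to 3 of the most abundant genes of lists without a call, and a set of secretory, Notch, cell cycle and stem cell genes. Genes named for their window (Ang, Ang5, Rnase4, Itln1, Pla2g2a and Cd38) or as single examples (Defa24, Cd14) were added after their values were seen. Positions are those of the count files, gene types come from GENCODE M21 (97.96% of genes matched), and promoters come from RefSeq (GRCm38.p6). Alternatives were DESeq2 1.42.0, other scalings and filters, sex or replicate number as covariates, all 24 libraries in a single fit, and leaving out libraries. Leaving out the numbers 3 to 7 in both genotypes was chosen after seeing the data.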

Additional observations from a re-analysis of the deposited data

Results flagged for a closer look

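In 9 of 208 groups of 6 libraries, 1 library of a named gene stood far from the other 5 by Dixon's ratio, which chance does in about 1 of 20 groups. The WT library numbered 7 was the low one for Akp3 (3.40 CPM, others 9.95 to 12.9). The same library was the high one for Ceacam10 (14.6 CPM, others 2.12 to 6.65), Cd74 (153 CPM, others 10.2 to 60.1) and H2-Eb1 (33.0 CPM, others 1.98 to 11.7). The WT library numbered 3 held 24.1 CPM of Nos2 against 0.683 to 5.44 CPM in the others. In 9S/T-A, the library numbered 2 was low for Xbp1 (352 CPM, others 416 to 430) and Capn9 (355 CPM, others 462 to 518), and the library numbered 6 was high for Mib1 (44.8 CPM, others 40.3 to 42.0). The library numbered 4 held the only Ear10 count, equal to 0.0180 CPM.

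For 13 named genes with a mean above 0.1 CPM in a colon group, a minimum chosen after seeing the data, the genotype difference in colon departed from that in SI by the test of the difference itself. Ear2 also passed (adjusted p = 0.0141) but lay under that minimum in both colon groups, so no fold is given. The value given is the log2 fold change in colon minus that in SI, by edgeR's quasi-likelihood test with all 24 libraries. Among the genes that fell in SI it was 5.06 for Mptx2 (adjusted p = 3.38e-08), 4.0 for Ceacam10 (1.62e-05), 2.38 for Duox2 (0.00186), 2.24 for Cd177 (0.00149), 2.86 for Nox1 (0.0241), 1.97 for Duox1 (0.0329), 2.45 for Saa1 (0.0462), 2.1 for Mmp7 (0.0318) and 1.16 for Mptx1 (0.0305). Sval1, which rose in SI, differed by -2.11 (1.62e-05). The class II genes Cd74, H2-Eb1 and H2-Ab1, not called in SI, differed by 6.8 (0.00653), 5.47 (0.0141) and 2.72 (0.0141). In colon their log2 fold changes were 4.54, 3.79 and 2.34. Their 9S/T-A colon levels spread widely, at 129 ± 167, 18.9 ± 22.1 and 52.8 ± 52.4 CPM (mean and SD). The WT colon means were 5.56, 1.36 and 10.4 CPM.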

How the results depend on the processing

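The count of 315 called genes in SI ran from 143 to 779 when single libraries or numbers were left out. It was 550 without the 9S/T-A library 2, 195 without 4 and 194 without 5, and 188, 200 and 205 without the WT libraries 3, 4 and 6. Without a number in both genotypes it was 779 for 2, 143 for 3, 148 for 4, 167 for 5 and 150 for 6. It was 776 with DESeq2, 520 with all 24 libraries in a single fit and 561 at an adjusted p of 0.1. The 74 genes with a tissue difference became 255 with DESeq2 and 136 at 0.1. Replicate numbers do not pair the WT with the 9S/T-A libraries of SI by the check used. Same-numbered libraries correlated over 0.1 in 4 of 6 numbers (mean 0.179, against -0.0349 for other numbers). Only 2, 6 and 7 were their own best partner. As a block, the replicate number gave 477 called genes in SI, and 2476 with number 2 left out as well. For the tissue difference the block was genotype and number together, which joined same-numbered SI and colon libraries, and 342 genes were called. Whether such libraries belong together was not checked. In SI the replicate block raised the lower calls among enteroendocrine factors from 0 to 8 of 12 (11 without number 2). Among tuft cell genes it raised them from 2 to 7. With number 2 left out it called 19 of 21 replication and 18 of 20 mitosis genes lower. With all numbers kept, the block ended the calls of Nos2 (0.0865), Capn9 (0.0788), Defa20 (0.0687), Rnase4 (0.0625) and Pla2g2a (0.0503). It brought Neurog3, Insm1, Nkx2-2, Neurod1, Dclk1 and Dll4 under 0.05. Without the libraries numbered 2, Akp3, Tppp3, Defa20 and Defa28 lost their call. Of the 57 named called genes, 40 kept their call in all 12 single-library leave-outs and 17 lost it in some (adjusted p up to 0.117): Capn9, Rnase4 and Tppp3 in 10, Cd38 in 9, Akp3, Gsta1, Nox1, Duox1 and Ppp1r3e in 8, Prom1, Defa20 and Pla2g2a in 7, Defa28 in 6, Nos2 in 5, Rep15 in 4, and Defa25 and Pou2f3 in 3. Plain library totals gave 78 higher and 190 lower calls, ended the calls of Tppp3, Jag2, Rep15, Capn9, Defa25, Defa28, Defa20, Gsta1 and Rnase4, and turned Numb to -0.017, Erbb3 to -0.099, Hnf4a to -0.023, Gfi1 to -0.028 and Hes1 to -0.103, and the medians of the defensin, O-glycosylation, regional and EGF lists below 0. With the replicate block and number 2 left out, Hmgcs1 was 0.039 and Erbb3 -0.004. Over the same leave-outs, uncalled genes whose sign turned ran from -0.386 to 0.071 for Chga, -0.054 to 0.093 for Erbb3, -0.035 to 0.061 for Hes1, -0.157 to 0.047 for Hmgcs1 and -0.18 to 0.074 for Hspa5. The causes were not tested. A depth of at least 35967875 counts limits mainly genes near the floor of 3 counts.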
